A study of Mus musculus with 3 samples.

Results

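The genes of arginine use were examined in the 3 RNAseq libraries of a mouse kidney tumor study. These genes were Arg1, Arg2, Nos2, Ass1, Asl, Slc7a2 and Odc1. The 7 genes were chosen by name and all 7 had values among the 36835 genes that could be assembled from the table. The study injected Renca cells, a renal carcinoma line, into the kidney of BALB/C mice and sorted immune cells by FACS. The labels give the line as Renca, and the study's text gives it as Renca Ch+ L+, which carries Cherry and luciferase. M1 macrophages were sorted as F4/80 int CD11b hi cells and M2 macrophages as F4/80 hi CD11b int cells, both from 30 pooled tumors. CD4+ T cells were sorted as TCRβ+ CD4+ cells from 4 pooled spleens, although the labels also give tumor as their organ. The labels give both day 14 and day 16 for the harvest. A figure legend of the study describes the mice of these libraries as injected with tumor cells. Its results name the CD4+ T cells as splenic without stating whether those mice carried tumors. No library was titled as from tumor-free mice. Each subset had 1 library of pooled cells, so that no value below has a replicate error and no test between subsets was possible. Levels are given in FPKM, in which the fragments of a transcript are divided by its length and by the size of the library, so that genes can be set side by side.

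Arginine is the shared substrate of enzymes with opposed roles in macrophages. Arginase splits it into urea and ornithine, from which polyamines and proline are made. Inducible nitric oxide synthase, encoded by Nos2, oxidises it to citrulline and nitric oxide, which is toxic to microbes and tumor cells. Mouse macrophages treated with IL-4 are known for high Arg1 and those treated with interferon gamma and LPS for high Nos2, so that the pair is widely used to tell M2 from M1 cells. Arginase of tumor macrophages can also deplete arginine around T cells.

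The labels were compared with marker genes before the arginine genes were read. All 15 macrophage markers were lowest in the library labelled M2, where their sum was 676 FPKM against 8605 in the library labelled M1 and 13646 in the library labelled CD4. All 14 T cell markers with a complete row were highest in the library labelled M2, with a sum of 2123 FPKM against 6.46 in the library labelled M1 and 18.0 in the library labelled CD4. Of these 18.0 FPKM, the gene Cd4 by itself held 15.2. Csf1r, the receptor for the macrophage growth factor, had 279 FPKM in the library labelled M1, 15.3 in that labelled M2 and 519 in that labelled CD4. Cd3e, a chain of the T cell receptor complex, had 0.131, 126 and 0.141 FPKM in the same order. The markers thus went against the labels M2 and CD4, and the libraries are named below only as they were labelled. The 3 libraries held an estimated 60000000 to 73000000 fragments each. In bulk RNA, fewer cells of a type and less RNA per cell cannot be told apart.

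Arg1 was the most abundant of the 7 genes in all 3 libraries. Arg1 (ENSMUSG00000019987), the cytosolic arginase, lies at chr10:24635014-24647276 on the minus strand of NCBIM37, the assembly also called mm9, and has 1 annotated transcript of 1476 bases. Its level was 321 FPKM in the library labelled M1, 88.5 in that labelled CD4 and 12.1 in that labelled M2. Among genes above 0 this placed Arg1 at percentile 99.3 of the library labelled M1, 96.9 of that labelled CD4 and 74.3 of that labelled M2. The library labelled M1 was 26.5 times the library labelled M2 and 3.63 times that labelled CD4, and the library labelled CD4 was 7.32 times that labelled M2. At the estimated depths, the 12.1 FPKM of the library labelled M2 stood for about 1066 fragments.

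Arg2 (ENSMUSG00000021125), the mitochondrial arginase, lies at chr12:80231764-80257288 on the plus strand. Its level was 28.3 FPKM in the library labelled M1 and 16.9 in that labelled CD4, a ratio of 1.68. In the library labelled M2 its complete row was listed at 0. The same transcript had 4 further rows that held a value for the library labelled M2 alone, with 0.405, 0.505, 0.505 and 2.1 FPKM. With these rows added, Arg2 had 3.51 FPKM in the library labelled M2, and the library labelled M1 was 8.06 times and that labelled CD4 4.81 times this level. Arg2 stood at 8.82% of the Arg1 level in the library labelled M1 and at 19.1% in the library labelled CD4.

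Nos2 (ENSMUSG00000020826), at chr11:78734289-78773756 on the plus strand, had low levels in all 3 libraries. Its level was 3.27 FPKM in the library labelled M1, 1.59 in that labelled M2 and 1.18 in that labelled CD4, at percentiles 51.8, 43.0 and 41.6 of the genes above 0. On its transcript of 4192 bases these levels stood for an estimated 836, 399 and 363 fragments. Nos2 in the library labelled M1 was 2.05 times its level in that labelled M2 and 2.76 times its level in that labelled CD4. The library labelled M2 was 1.35 times that labelled CD4, the reverse of the order for Arg1. Nos1 and Nos3, the neuronal and endothelial synthases, were each below 0.2 FPKM in all 3 libraries by their complete rows. With all rows summed, Nos1 had 0.242 FPKM in the library labelled M2.

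The Arg1 to Nos2 ratio was 98.1 in the library labelled M1, 74.7 in that labelled CD4 and 7.58 in that labelled M2. Arg1 therefore exceeded Nos2 in all 3 libraries. The ratio of the library labelled M1 was 1.31 times that of the library labelled CD4 and 12.9 times that of the library labelled M2. Both genes were higher in the library labelled M1 than in that labelled CD4, Arg1 by 3.63 times and Nos2 by 2.76 times, which left their ratios near each other. With both arginases summed, the ratio to Nos2 was 107 in the library labelled M1, 89.0 in that labelled CD4 and 7.58 in that labelled M2, or 9.79 in the last with the additional Arg2 rows. The scale of a library cancels in these ratios. Arg1 and Nos2 each had 1 row in the table, so that the choice of row did not enter their ratio.

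**Figure D1:**
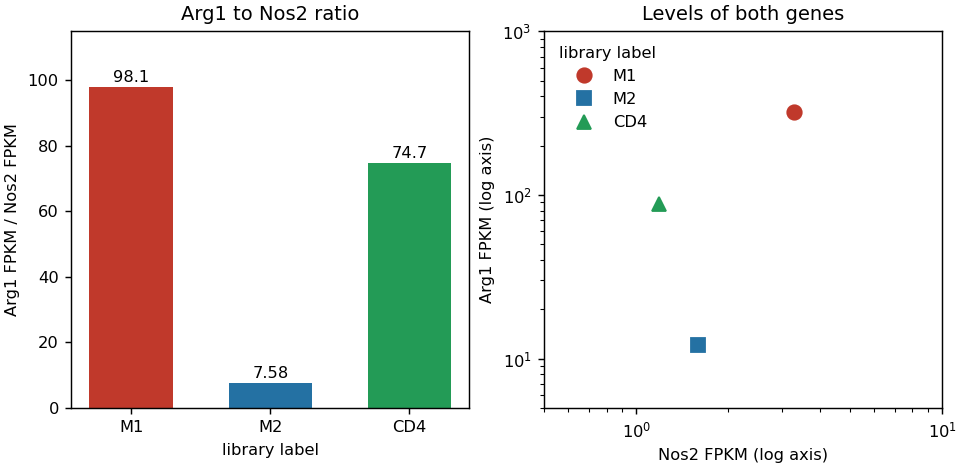
The left panel plots the ratio of Arg1 FPKM to Nos2 FPKM as 1 bar for each library, and the right panel plots Arg1 against Nos2 FPKM on log axes with 1 point for each library and no error, since each subset had 1 library. The ratio was 98.1, 7.58 and 74.7 in the libraries labelled M1, M2 and CD4, and Arg1 spanned 12.1 to 321 FPKM while Nos2 spanned 1.18 to 3.27.

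The library that held the T cell markers also held the macrophage markers, at lower levels than the other libraries, and both sets of values are given together. These levels ranged from 0.341 to 330 FPKM. In the library labelled M2 the 15 macrophage markers stood at 4.93% to 24.4% of their level in the library labelled M1, with 10.2% as the median. Arg1 stood at 3.77% of its level in the library labelled M1, below that range, and Nos2 at 48.7%, above it. Against the library labelled CD4 the macrophage markers had a median of 4.25% and a range of 1.68% to 17.9%. Arg1 stood at 13.7%, inside that range, and Nos2 at 135%, above it. The part of macrophage RNA in the Arg1 and Nos2 values of the library labelled M2 was not tested.

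Transcripts of the arginase genes were compared because both encode the same reaction and could share reads. Their coding sequences in the NCBIM37 annotation had 972 bases in Arg1 and 1065 in Arg2, and 64.9% of 961 aligned bases were identical. The longest run of identical bases was 12 bases. It is shown in capitals within 20 bases of coding sequence on either side, from coding base 523 to 534 of Arg1 and 580 to 591 of Arg2.
Arg1: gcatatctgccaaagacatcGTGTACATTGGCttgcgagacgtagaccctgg
Arg2: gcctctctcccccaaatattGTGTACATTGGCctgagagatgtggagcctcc
The run was shorter than a read of 51 bases. None of the 51-base words of Arg1, Arg2, Nos2 or Asl occurred elsewhere in the genome, so that full-length matching reads of these 4 genes had 1 place each.

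Ass1 and Asl rebuild arginine from citrulline, the product of nitric oxide synthase. Ass1 (ENSMUSG00000076441), argininosuccinate synthase, lies at chr2:31325727-31376192 on the plus strand and was the sole member highest in the library labelled M2. Its level was 8.98 FPKM there, 5.94 in the library labelled M1 and 0.732 in that labelled CD4. The library labelled M2 was 12.3 times and that labelled M1 8.12 times the library labelled CD4, while the library labelled M2 was 1.51 times that labelled M1. Ass1 has a processed copy, the pseudogene Gm5424 at chr10:61533871-61535109, and 1086 of 1646 51-base words of Ass1 also occurred there. Gm5424 was listed at 14.5, 23.8 and 1.46 FPKM in the libraries labelled M1, M2 and CD4, which was 2.43, 2.65 and 2.0 times the Ass1 value. The level of Ass1 by itself is therefore uncertain, since Cufflinks could divide reads between the gene and its copy. The sum of both was 20.4 FPKM in the library labelled M1, 32.7 in that labelled M2 and 2.20 in that labelled CD4, in the same order as Ass1 alone and, in that labelled M2, above the Arg1 level.

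Asl (ENSMUSG00000025533), argininosuccinate lyase, at chr5:130487128-130501002 on the minus strand, had 16.6 FPKM in the library labelled M1, 13.1 in that labelled CD4 and 7.93 in that labelled M2. Of its 9 annotated transcripts, Asl-001, Asl-002 and Asl-009 carried the level. Asl-001 had 8.25, 4.92 and 6.46 FPKM in the libraries labelled M1, M2 and CD4. Asl-009 had 4.69, 3.01 and 4.02 FPKM, while Asl-002 had 3.68 and 2.64 in the libraries labelled M1 and CD4 and was listed at 0 in that labelled M2. With all rows of each transcript summed, Asl had 16.9, 10.5 and 18.1 FPKM in the libraries labelled M1, M2 and CD4, and the order of the first and the last was turned.

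Slc7a2 encodes CAT2, a transporter that carries arginine, ornithine and lysine into the cell and is known to be induced in activated macrophages. Slc7a2 (ENSMUSG00000031596), at chr8:41947750-42007662 on the plus strand, was below 1 FPKM in the libraries labelled M2 and CD4. Its level was 10.1 FPKM in the library labelled M1, 0.924 in that labelled CD4 and 0.210 in that labelled M2. The library labelled M1 was 10.9 times that labelled CD4 and 48.0 times that labelled M2, where the level stood for an estimated 74 fragments. With all rows summed, the levels were 10.1, 1.75 and 0.293 FPKM, and the ratios were 5.74 and 34.3.

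The transcripts of Slc7a2 differ in exon 7, for which the gene has a pair of alternative versions. In NCBIM37, Slc7a2-001 and Slc7a2-004 hold the version of 137 bases at chr8:41993752-41993888, and Slc7a2-002 and Slc7a2-003 hold the version of 140 bases at chr8:41993410-41993549. The latter encodes the segment of CAT2B, the high-affinity form known from activated macrophages, and the former that of CAT2A, the low-affinity form known from liver. Both are shown on the plus strand, with the bases that differ in capitals, because the levels are given below by this exon. The transcripts also differ in their ends, and which part of the sequence set their estimated levels was not tested. Of 137 aligned bases, 84 were identical, or 61.3%.
Slc7a2-001 and Slc7a2-004: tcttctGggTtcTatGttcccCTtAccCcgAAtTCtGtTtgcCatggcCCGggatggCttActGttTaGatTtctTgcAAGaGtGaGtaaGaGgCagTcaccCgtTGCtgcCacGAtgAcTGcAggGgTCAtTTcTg
Slc7a2-002 and Slc7a2-003: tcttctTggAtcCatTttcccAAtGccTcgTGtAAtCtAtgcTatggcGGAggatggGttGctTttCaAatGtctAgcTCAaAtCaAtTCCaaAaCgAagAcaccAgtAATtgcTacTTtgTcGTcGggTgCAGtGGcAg
In the library labelled M1, the transcripts with the CAT2B version held 8.89 FPKM, or 88.4% of the gene. Slc7a2-002 had 6.65 FPKM, Slc7a2-003 had 2.25 and Slc7a2-001 had 1.17. In the library labelled M2, Slc7a2-002 had 0.119 and Slc7a2-003 had 0.0909 FPKM, while in that labelled CD4 Slc7a2-003 alone was listed, at 0.924. Rows of Slc7a2-001 without values in all libraries held 0.0837 FPKM in the library labelled M2 and 0.391 and 0.439 in that labelled CD4. With these rows, the share of the CAT2B version was 88.4%, 71.5% and 52.7% in the libraries labelled M1, M2 and CD4, and the last 2 shares rest on levels below 2 FPKM.

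**Figure D2:**
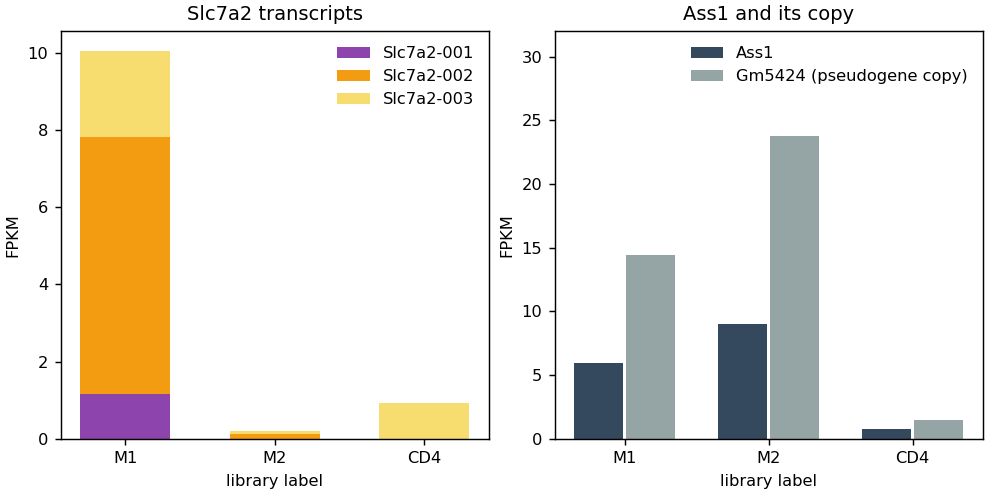
The left panel stacks the FPKM of the Slc7a2 transcripts in each library, and the right panel sets Ass1 beside its pseudogene copy Gm5424, both from complete rows and with 1 library for each label. Slc7a2-002 made up most of the 10.1 FPKM in the library labelled M1, and Gm5424 stood above Ass1 in all 3 libraries.

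Odc1 (ENSMUSG00000011179), ornithine decarboxylase, makes the first polyamine from the ornithine that arginase yields. It lies at chr12:17551679-17558308 on the plus strand, and 1 of its 2 annotated transcripts had a complete row. Its level was 7.96 FPKM in the library labelled M1, 6.91 in that labelled CD4 and 6.21 in that labelled M2. These were the closest levels of the 7 genes, with a ratio of 1.28 between the libraries labelled M1 and M2. Of the 51-base words of Odc1, 54.3% also occurred in other places, and 6 annotated pseudogenes among them had values, so that its level is uncertain. With these copies added, the sum was 15.1, 13.7 and 17.3 FPKM in the libraries labelled M1, M2 and CD4, and the highest was then the library labelled CD4. Odc1 stood at 2.48% of Arg1 in the library labelled M1, 7.81% in that labelled CD4 and 51.3% in that labelled M2.

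**Figure D3:**
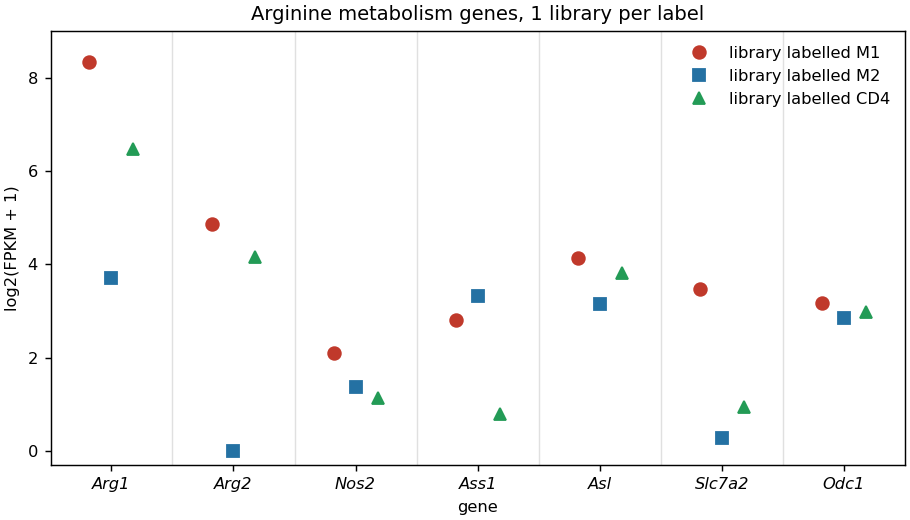
The level of each gene is plotted as log2(FPKM + 1), with 1 point for each library and no error. Arg1 is the highest gene in all 3 libraries, Ass1 is the gene highest in the library labelled M2, and the 3 points of Odc1 lie closest together.

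Differences between libraries were then sized in the same way for the 7 genes and for all genes. The measure was the difference in log2(FPKM + 1), which understates the change of low genes, and a gene counted as different at a size of 1, or 2-fold, if it had at least 1 FPKM in either library. The 3 comparisons share libraries and are not independent of each other.

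Between the libraries labelled M2 and M1, 3 of the 7 genes were lower in the former and 0 were higher. Among all 12443 genes measured in this pair, 14.5% were lower and 17% were higher in the library labelled M2. Arg1 differed by -4.62 and Slc7a2 by -3.19 on the log2 scale. Arg2 differed by -4.87 with its complete row, which is listed at 0 in the library labelled M2, and by -2.70 with all rows summed. Asl at -0.98 by complete rows lay just inside the limit, followed by Nos2 at -0.72, Odc1 at -0.32 and Ass1 at 0.52. With all rows summed, Asl differed by -0.64. By complete rows the median of the 7 was -0.98, the value of Asl, against 0.10 for all genes. In the direction of these differences, the macrophage markers had a median of -2.74 in the same pair, and their part in the result was not tested.

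Between the libraries labelled CD4 and M1, which both held macrophage markers at high levels, 3 of the 7 genes were lower in the former and 0 were higher. Of 11587 genes in this pair, 7.24% were lower and 6.98% higher in the library labelled CD4. Slc7a2 differed by -2.52, Ass1 by -2.0 and Arg1 by -1.85. Nos2 at -0.97 and Arg2 at -0.71 were lower by less than the limit, and Asl and Odc1 differed by -0.32 and -0.18. With all rows summed, Asl differed by 0.09 and Odc1 by -0.13, so that the sign of Asl depends on the rows used. With its copies added, Odc1 was higher in the library labelled CD4, at 17.3 against 15.1 FPKM. The median of the 7 was -0.97, against -0.01 for all genes. Of the 15 macrophage markers, 7 were higher in the library labelled CD4 and 0 were lower. Their median was 0.90, the reverse in sign of the median of the arginine genes. Most monocyte and neutrophil markers measured in this pair differed in the same direction as the median of the arginine genes, and their part in the result was not tested. Of the 5 monocyte markers, 4 were lower in the library labelled CD4, among them Ly6c2, a marker of inflammatory monocytes, with 64.5 FPKM in the library labelled M1 and 1.97 in that labelled CD4. The fifth, the chemokine receptor Cx3cr1, was higher, with 28.6 and 140 FPKM. In the library labelled M2, Ly6c2 was listed at 0 in its complete row and had 39.7 FPKM with all rows summed. Of 6 neutrophil markers measured in this pair, 5 were lower in the library labelled CD4, and the sum of all 12 was 88.3 FPKM in the library labelled M1, 247 in that labelled M2 and 37.8 in that labelled CD4. Mmp8, a neutrophil collagenase, had 15.9, 1.08 and 1.38 FPKM in that order, whereas Ly6g, the surface marker that defines mouse neutrophils, was below 0.1 in all 3 by its complete row. With all rows summed, Ly6g had 1.26 FPKM in the library labelled M2.

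Between the libraries labelled M2 and CD4, 6 of the 7 genes reached 1 FPKM, and Slc7a2 did not. Arg1 differed by -2.77, and Ass1 was higher in the library labelled M2 by 2.53. Arg2 differed by -4.16 with its complete row and by -1.99 with all rows summed, so that its place before or after Arg1 depends on the rows used. These were 2 genes lower and 1 higher, while 15.3% of 12438 genes were lower and 17.3% higher in the library labelled M2. Asl differed by -0.66, Odc1 by -0.13 and Nos2 by 0.25. The median of the 6 was -0.40, against 0.12 for all genes.

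**Figure D4:**
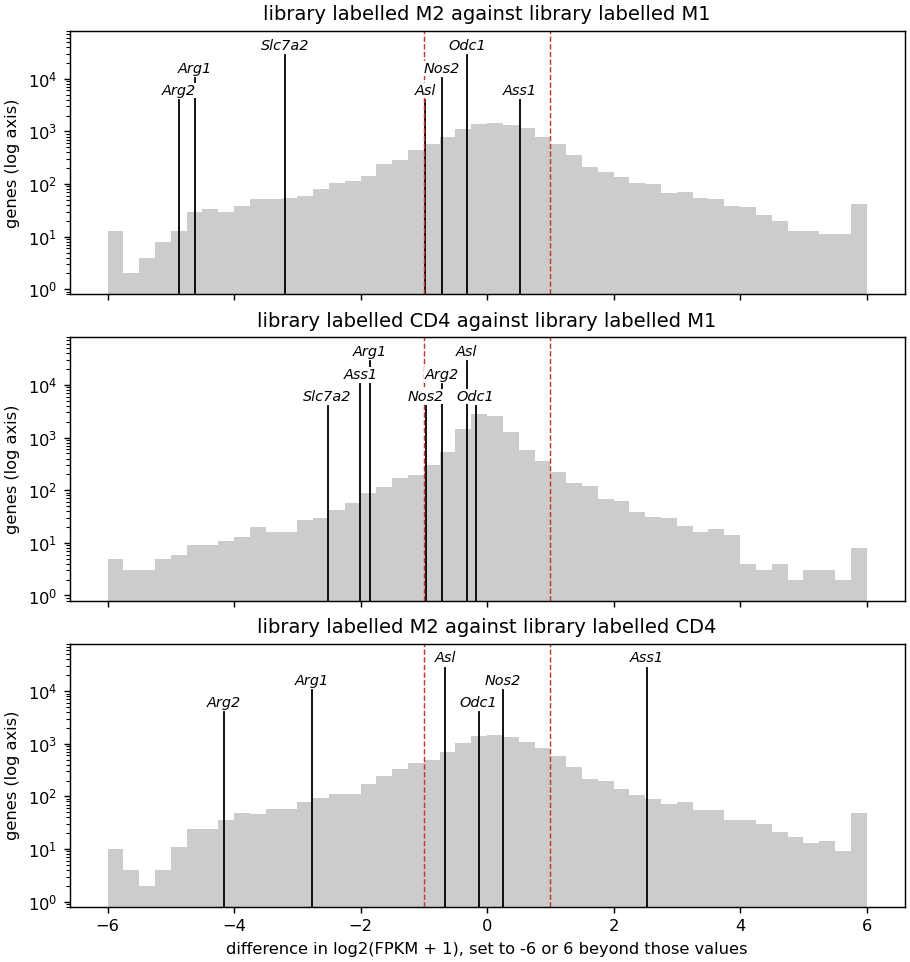
The grey bars count all genes by their difference in log2(FPKM + 1) between a pair of libraries on a log axis, the black lines mark the arginine genes with at least 1 FPKM in the pair by their complete rows, and the red dashed lines stand at -1 and 1. Arg1 lies to the left of -1 in all 3 panels, and Ass1 lies to the right of 1 in the bottom panel alone.

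Other markers used to tell M1 from M2 macrophages did not move as a block between the libraries labelled M1 and CD4. Of 10 such genes measured, 3 were lower in the library labelled CD4, 2 were higher and 5 were within the limit, against 7.24% lower and 6.98% higher among all genes. Retnla, like Arg1 a gene induced by IL-4, had 34.2 FPKM in the library labelled M1, 0.209 in that labelled M2 and 4.78 in that labelled CD4, the same order as Arg1. Chi3l3, also an M2 marker, had 9.04, 2.51 and 0.165 FPKM, with the library labelled CD4 lowest, unlike Arg1. Mrc1, the mannose receptor and also an M2 marker, had 215, 19.5 and 649 FPKM, highest in the library labelled CD4. Cd163 had 3.34, 0.341 and 20.3 FPKM, in the order of Mrc1. Il1b, an inflammatory cytokine, had 230, 20.2 and 92.3 FPKM, again in the order of Arg1. Genes assigned to M1 and genes assigned to M2 were therefore both found among those higher in the library labelled M1.

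The other 40 genes of the pathway were examined by function, and most were within the limit. Between the libraries labelled M2 and M1, 6 of 28 measured genes were lower in the former, 1 was higher and 21 were within the limit, with a median of -0.28, against 14.5% lower and 17% higher among all genes. Between those labelled CD4 and M1 the counts were 1 lower, 2 higher and 26 within of 29, with a median of 0.13, against 7.24% and 6.98%. Between those labelled M2 and CD4 they were 6 lower, 1 higher and 22 within of 29, with a median of -0.22, against 15.3% and 17.3%. With all rows summed, the counts in these pairs were 5 lower and 2 higher, 0 lower and 3 higher, and 6 lower and 3 higher. The medians of all genes are those given above.

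Of the urea cycle, Otc and Cps1, which make citrulline in the liver, were listed at 0 in all 3 libraries. Oat, which turns ornithine toward proline and glutamate, had 43.9, 27.5 and 48.0 FPKM in the libraries labelled M1, M2 and CD4. Among transporters, Slc7a1, the widely expressed arginine transporter CAT1, had 14.0, 17.2 and 10.2 FPKM and exceeded Slc7a2 in all 3. Slc7a7, which exchanges arginine with Slc3a2 as partner chain, had 38.8, 12.7 and 62.2 FPKM and was lower in the library labelled M2 in both of its pairs. Slc7a6, a related exchanger, had 11.9, 19.6 and 8.55 FPKM and exceeded the limit between the libraries labelled M2 and CD4, with the former higher.

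Nitric oxide synthase needs tetrahydrobiopterin as cofactor. Gch1, the first enzyme of its synthesis, had 17.5, 9.62 and 11.4 FPKM in the libraries labelled M1, M2 and CD4, in all of them above Nos2. Pts, the enzyme after it, had 8.07, 17.8 and 13.4 FPKM and was the sole gene of the 40 that was past the limit and higher in that labelled M2 when compared with that labelled M1. Nostrin, which binds the endothelial synthase, had 7.99, 0.319 and 5.51 FPKM, and was lower in the library labelled M2 in both pairs.

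Among polyamine enzymes, Smox, spermine oxidase, had 37.0, 14.0 and 31.7 FPKM in the libraries labelled M1, M2 and CD4. Sat1, which acetylates polyamines for export, had 156, 107 and 174 FPKM and was within the limit in every pair. Paox, which oxidises acetylated polyamines, had 1.89, 0.751 and 11.4 FPKM and was highest in the library labelled CD4. Amd1, which supplies the aminopropyl group, had 15.2, 4.44 and 3.35 FPKM, but with all rows summed it had 15.6, 21.3 and 21.0 and was no longer lower in either pair.

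Creatine synthesis also begins with arginine. Gatm, which transfers the amidino group of arginine to glycine, had 149 FPKM in the library labelled M1, 12.04 in that labelled M2 and 323 in that labelled CD4. It was thus lower than Arg1 in the library labelled M1 and above Arg1 in that labelled CD4. Gamt, which completes creatine, had 7.52, 2.33 and 9.90 FPKM. Both were lower in the library labelled M2 in both of its pairs, and Gatm was also higher in the library labelled CD4 than in that labelled M1.

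**Figure D5:**
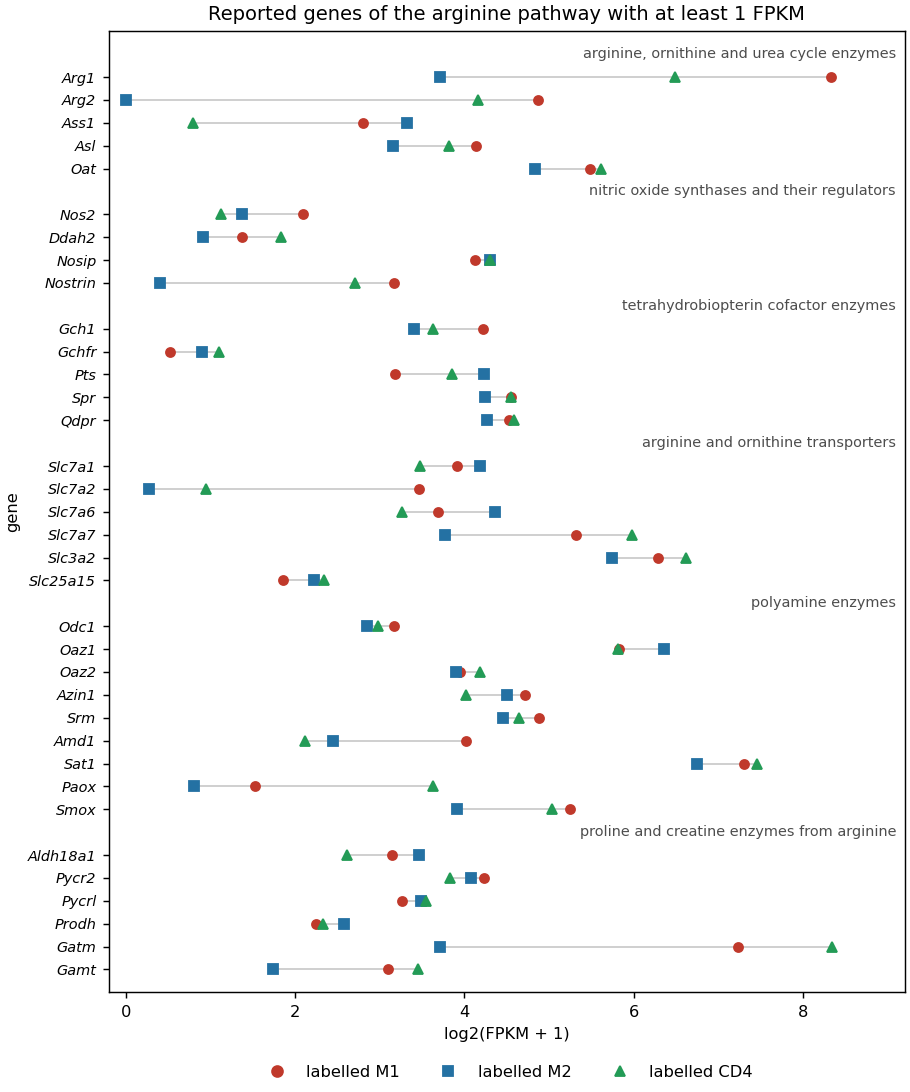
Reported genes of the pathway with at least 1 FPKM in a library are plotted by group as log2(FPKM + 1), with 1 symbol for each library and a grey line over their range. Arg1, Arg2, Slc7a2 and Gatm have the widest ranges, with the library labelled M2 lowest in each.

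The genes whose levels were nearest to those of Arg1 over the 3 libraries were sought among 11103 protein-coding genes, by Euclidean distance on the log2(FPKM + 1) scale. They were H2-DMb1 at a distance of 0.61, Mmp12 at 0.64, H2-DMa at 0.69, Gm2a at 0.73 and Plbd1 at 0.83. Mmp12, macrophage elastase, had 398, 18.0 and 78.3 FPKM in the libraries labelled M1, M2 and CD4. H2-DMb1 and H2-DMa, the chains that load peptides onto MHC class II, had 240 and 229 FPKM in the library labelled M1. For Nos2 the nearest were Zfp574 at 0.19, Raet1d at 0.19, Cdkl2 at 0.21, Csnk1g3 at 0.22 and Troap at 0.31, all at levels below 4 FPKM. With 3 libraries, such nearness describes these values only.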

How the data were processed

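RNA of 3 libraries, 1 for each subset, was analysed. The authors aligned paired reads of 51 bases to mouse genome mm9 with TopHat and Bowtie and ran Cufflinks guided by Ensembl annotation. The values they deposited are FPKM per transcript in 1 table, with a column for each library. Columns were matched to samples by their headings. For each identifier the first row with a value in all 3 columns was used, 90430 identifiers in all, and 97.6% of them were found in the GENCODE annotation of NCBIM37. Gene levels were sums over transcripts, for 36835 genes.

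Differences were taken in log2(FPKM + 1), with a pseudocount of 1 FPKM, a minimum of 1 FPKM in either library and a size of 1. No p-value was calculated. Depth was estimated from the level of 1 fragment in long transcripts of single-transcript genes. The 51-base words of the protein-coding transcripts of the 7 genes were searched in the genome. The rule for a 2-fold difference and the depth estimate were tested on simulated data, and the other calculations were not. The changes simulated for the rule were in genes of at least 10 FPKM, so that changes in lower genes were not covered. The genes and lists, including those of macrophage, T cell, neutrophil, monocyte, kidney epithelium and polarisation markers and of the arginine pathway, were chosen with earlier results of these data known. Genes named were all members, pathway genes by list, and the 5 genes nearest to Arg1 and to Nos2. Single values of 2 list members are not given here, while the counts and medians of their lists include them. Sequences came from the reference assembly. Python 3.11.15, numpy 2.4.6 and pandas 2.3.3 were used.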

Additional observations from a re-analysis of the deposited data

How the results depend on the processing

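No paired analysis was possible because each subset had 1 library. The settings tried were all rows of an identifier summed, the row with the highest sum, columns scaled by the median ratio, a pseudocount of 0.1 FPKM, no minimum and a minimum of 10 FPKM. The Arg1 to Nos2 ratios could not change, since both genes had 1 row, and neither could the counts without a minimum, since a gene below 1 FPKM in both libraries cannot reach the size of 1. Of the 60 counts that could change, 53 stayed within 1.5 times the reported count and 7 did not, all at the minimum of 10 FPKM, where fewer genes were measured. There, the library labelled M2 had 1020 genes higher and 1157 lower against that labelled M1, the library labelled CD4 had 381 higher and 416 lower against that labelled M1, and the library labelled M2 had 1070 higher and 1198 lower against that labelled CD4. At this minimum 0 of the 7 arginine genes were higher in the library labelled M2 when set against that labelled CD4, since Ass1 did not reach it, and Ass1 also left the genes lower in the library labelled CD4 when set against that labelled M1. Asl was also lower in the library labelled M2 than in that labelled M1 after scaling and with the smaller pseudocount. With all rows summed, its difference in this pair was -0.64, further inside the limit. Nos2 was also lower in the library labelled CD4 than in that labelled M1 with the smaller pseudocount, and Slc7a2 in that labelled M2 than in that labelled CD4 with all rows. Of 63 levels, 8 moved by over 5%, all with all rows summed. With 1 library per subset, depth limits counting error alone and gives no measure of the spread between animals or sorts.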

Other observations

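Of 14 kidney epithelial markers, 10 were lowest in the library labelled M1 and 7 highest in that labelled CD4. The share of all genes in these places was not counted. By the 2-fold rule, 8 of the 14 were measured in the library labelled CD4 against that labelled M1. Of these, 2 were higher, 2 lower and 4 within the limit, while 6.98% of all genes were higher and 7.24% lower. The medians of the 14 markers were low, at 0.329, 0.652 and 1.00 FPKM in the libraries labelled M1, M2 and CD4. Their sums of 90.4, 112 and 63.3 FPKM were carried mostly by Cdh1, the epithelial cadherin, with 48.2, 6.69 and 3.84 FPKM, and Cdh16, the kidney cadherin, with 33.4, 87.8 and 46.0 FPKM. The sort was gated on F4/80 and CD11b or on TCRβ and CD4. Of 9 neutrophil markers measured in the library labelled M2 against that labelled M1, 5 were higher, 2 were lower and 2 were within the 2-fold limit. Among all genes of this pair, 17% were higher and 14.5% lower. S100a8 had 84.5 FPKM in the library labelled M2 and 19.0 in that labelled M1, and S100a9 had 110 and 28.1. Ngp had 26.6 and 0.0270 FPKM in the same order, Ltf 7.75 and 0.191, and Camp 1.84 and 0. The lower markers were Mmp8, with 1.08 and 15.9, and Csf3r, with 8.4 and 19.7.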
